A study of Mus musculus with 22 samples.

Results

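Expression shared by cage mates was measured in the right brain hemisphere of 14 male mice, the dominant and the submissive male of each of 7 cages, out of 22 samples in the series. These are the samples of the male count table. The cages are called M1 to M7 here, after the number that the 2 mice of a cage carry in the labels, so that M1 held Dominant male 1 and Submissive male 1. For each gene the variance between cages was set against the variance within cages, after the means of the cage sets M1 to M4 and M5 to M7 and of rank had been removed. The labels do not say what these sets are, and the male results depend on this split, as given below. The question was which genes 2 mice share when they lived in 1 cage and were killed together. The other 8 samples, a dominant and a submissive female from each of the 4 cages F1 to F4, were used as a check.

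Gene expression in a whole hemisphere carries several programmes that respond to the state of the animal. Immediate-early genes are transcribed within minutes of neuronal activity, chaperones of the endoplasmic reticulum (ER) are induced by the unfolded protein response when that compartment is loaded, and cold-inducible RNA-binding proteins follow body temperature. Animals that share a cage also share handling, arousal, feeding and time of killing, and in bulk tissue the level of a gene made in a small nucleus depends on how much of that nucleus is in the piece.

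The study compared dominant with submissive mice of strain C57BL/6JOlaHsd and had no other treatment. Adult mice were group-housed, ranked within the cage by a tube test, and the highest and lowest animal of a cage were killed at the same time. Part of the female groups was formed anew from animals of middle rank and tested again. The labels give no age. Cage mates also had consecutive library numbers, so that cage, time of killing and place in the library series cannot be told apart.

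Total counts ran from 12403943 to 15805170 in males and from 14967458 to 16488762 in females. A count of 3 corresponded to between 0.189 and 0.243 CPM (counts scaled to library size) in males and to between 0.180 and 0.199 CPM in females, and these floors cover counting error only. Male cage mates had similar totals, with an intraclass correlation of 0.763. That value is near 1 where mates are alike and cages differ, near 0 where mates are no more alike than other mice, and negative where mates differ more than cages do. Cage M4 was lowest in depth, with 12403943 and 12851198 counts, and the part of depth in the results was not tested beyond scaling each library.

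The sex labels matched the data. Xist, the RNA that silences an X chromosome, had between 0 and 3 counts in each male and between 309 and 396 CPM in females. Ddx3y, a gene of the Y chromosome, ran from 145 to 177 CPM in males and had 0 counts in all 8 females. The tissue label was met by markers of neurons (Snap25, between 1338 and 1628 CPM in males), oligodendrocytes (Mbp, between 2365 and 2868 CPM) and astrocytes (Slc1a3, between 712 and 930 CPM).

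The library of the dominant male of cage M1 stood apart. Pcp2, a marker of Purkinje cells of the cerebellum, had 0 counts in it, which allows up to 0.212 CPM, against values from 19.9 to 46.3 CPM in the other 13 males. Gabra6, a receptor subunit of cerebellar granule cells, was at 0.496 CPM against 70.9 to 184 CPM, and Car8 was at 18.2 CPM against 223 to 435 CPM. Male counts of the gene lists below are therefore also given without this cage, where 6.28% of all genes had an unadjusted p under 0.05.

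Across the whole transcriptome, male cage mates were no more alike than dominant and submissive males of different cages of the same set. No gene passed the edgeR or limma-trend test between cages, while DESeq2 called 4. The 20 genes with the smallest p were a mixed set. It included ER chaperones and their regulators (Hspa5, Xbp1, Sdf2l1, Manf), which were high in both males of cage M2, genes of serotonergic neurons (Slc6a4, Tph2), immediate-early genes (Egr2, Fos), and genes of none of these groups (Slc5a3, Opalin, Ehd2, Mef2c, Tfrc). In females 11 genes differed between cages, led by the immediate-early genes Arc, Dusp1 and Fos, which were high in both females of cage F3.

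In the male fit 0 of 14737 genes (0%) had an adjusted p under 0.05 for cage (edgeR quasi-likelihood F test, Benjamini-Hochberg), and 634 (4.30%) had an unadjusted p under 0.05. limma-trend called 0 genes and the DESeq2 likelihood ratio test called 4 (Hspa5, Mef2c, Slc5a3 and Xbp1). When the 2 sets were not separated 868 genes were called, so the sets differed widely. Without cage M1 the count was 0, with 926 genes (6.28%) at an unadjusted p under 0.05. Without cage M6 it was 1, Slc6a4. A small p in this test can come with an intraclass correlation near or below 0. Female hypothalamic peptide genes, for example, had 6 of 12 members at an unadjusted edgeR p under 0.05 and a median of 0.00715. Counts of genes at a small p are therefore not counts of genes in which mates were alike.

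The median intraclass correlation over all 14737 male genes was -0.00113, with quartiles of -0.291 and 0.293. Of all genes 11.4% had a value above 0.5 and 11.2% a value below -0.5. The correlation across genes between mates' deviations was -0.186 in cage M1, 0.0991 in cage M2, 0.0374 in cage M3, -0.155 in cage M4, -0.172 in cage M5, -0.139 in cage M6 and -0.0704 in cage M7. Cages M2 and M3 alone had mates that deviated the same way. The 7 pairs of mates averaged -0.0838 and the 18 other dominant-submissive pairs of the same set -0.0624, a difference of -0.0215 (exact permutation over 144 pairings, one-sided, p = 0.451, smallest possible 0.00694). The difference was 0.0350 without cage M1 and 0.0124 without cage M4. In females the 4 pairs had correlations of 0.0482, -0.0257, 0.0388 and 0.0342 in cages F1, F2, F3 and F4, averaging 0.0239 against -0.00797 for the 12 other pairs (exact permutation over 24 pairings, one-sided, p = 0.208, smallest possible 0.0417).

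Several genes of ER protein folding were among the 20 with the smallest p in males. No list held ER genes alone, but Hspa5, Sdf2l1, Manf and Creld2 were members of the list of heat shock and cold-inducible genes. The abundant ER disulfide isomerase P4hb, at 149 CPM on average, had an unadjusted p above 0.05. Hspa5 (BiP, the main chaperone of the ER lumen, chr2:34772090-34776529 of mm10) ran from 340 to 556 CPM over the 14 males, with a median of 412 CPM. Both males of cage M2 lay at the top, at 519 and 556 CPM, and both males of cage M7 were the highest of their set, at 478 and 491 CPM. The lowest cage mean was 369 CPM in cage M4, so that cages differed by up to 1.46-fold. Mates lay on the same side of their set and rank mean in 6 of 7 cages.

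Xbp1 (a transcription factor whose RNA is spliced in the unfolded protein response, chr11:5520641-5525993) ran from 93.1 to 133 CPM with a median of 102 CPM. Its males of cage M2 were at 127 and 133 CPM, those of cage M7 at 110 and 110 CPM, and those of cage M4 at 93.1 and 94.6 CPM. Sdf2l1 (an ER protein of the chaperone complex around Hspa5, chr16:17130138-17132383) ran from 5.81 to 11.1 CPM with a median of 8.05 CPM, and the pair of cage M2 was highest at 11.1 and 10.7 CPM. Manf (a secreted protein induced by ER stress, chr9:106887415-106891938) averaged 49.8 CPM in cage M2 and 34.0 CPM in cage M4. The collagen chaperone Serpinh1 (chr7:99345375-99353239) averaged 32.5 CPM in cage M2 and 23.9 CPM in cage M4. For all 5 genes cage M2 was highest and cage M4 lowest. Markers of tissue composition also differed between these cages. The median log2 deviation of brainstem and spinal identity genes was 0.226 in cage M2 and -0.266 in cage M4. The part of tissue composition in the ER genes was not tested.

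**Figure D1:**
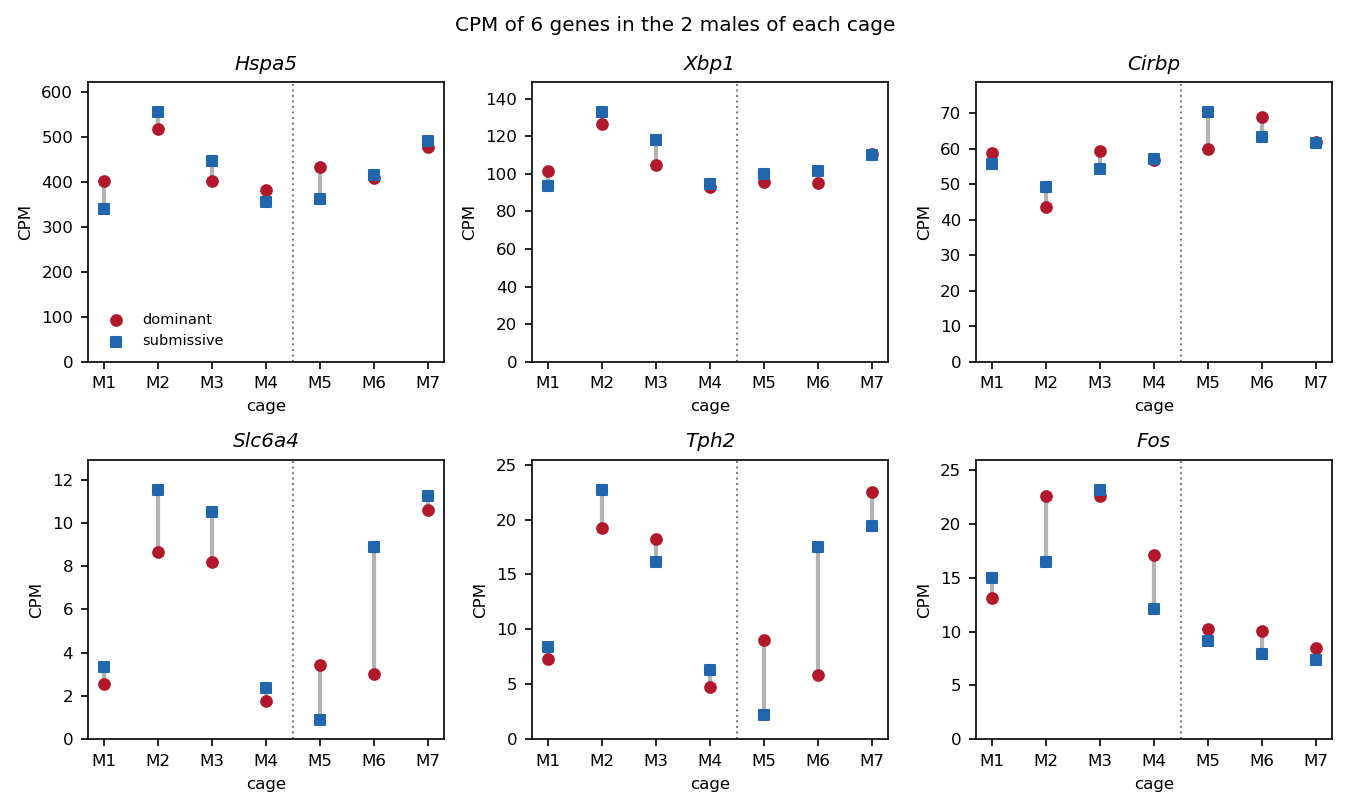
CPM of Hspa5, Xbp1, Cirbp, Slc6a4, Tph2 and Fos in each male, by cage, with circles for dominant and squares for submissive mice and a dotted line between the cage sets. Hspa5 and Xbp1 were highest in both males of cage M2, Cirbp was lowest there, and Slc6a4 and Tph2 were high in cages M2, M3 and M7.

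None of these genes passed the adjusted threshold in the edgeR quasi-likelihood test. Ranges of male cage means run over both sets and include the difference between the sets, which the test leaves out. Hspa5 had a Benjamini-Hochberg adjusted p of 0.420 in the edgeR fit, a 1.46-fold range of cage means and mates on the same side in 6 of 7 cages. For Xbp1 the edgeR adjusted p by Benjamini-Hochberg was 0.396, with a 1.38-fold range and 6 of 7 cages. Their intraclass correlations were 0.76 and 0.88. Sdf2l1, Serpinh1 and Manf followed in the same edgeR fit, each with a Benjamini-Hochberg adjusted p of 0.965 and ranges of 1.86-fold, 1.36-fold and 1.47-fold over 7 cages. With cage M2 left out, Hspa5, Xbp1 and Sdf2l1 kept an unadjusted p under 0.05 in the edgeR fit, and Manf and Creld2 did not. DESeq2 gave Hspa5 an adjusted p of 7.12e-08, and the adjusted p of Hspa5 ranged from 7.12e-08 to 1.00 over its 20 alternatives.

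The genes most similar to Hspa5 over the 14 males, by Pearson's r of log2 CPM after removal of set and rank means, were Xbp1 (r = 0.942), the protein disulfide isomerases Pdia4 (0.936) and Pdia6 (0.900), Creld2 (0.905), which is induced by ER stress, and Dnajb11 (0.897), a co-chaperone of Hspa5. Pdia4 averaged 84.8 CPM in cage M2 against 64.6 CPM in cage M6, and Creld2 17.6 against 11.9 CPM. Dnajb11 averaged 62.6 CPM in cage M2 and 51.3 CPM in cage M4. Counts of Pdia4 and Pdia6 are uncertain, since they share 14 exon bases with Mir704 and 50 with Atp6v1c2 and the strand setting of the counting is not stated.

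In the list of heat shock and cold-inducible genes, 8 of 20 had an unadjusted p under 0.05 in males (40%, against 4.30% of all genes) and 0 had an adjusted p under 0.05 in the edgeR fit, while DESeq2 called Hspa5. Their median intraclass correlation was 0.404, and 17 of the 20 were above 0. The 8 were Hspa5, Sdf2l1, Manf, Creld2, Chordc1, Rbm3, Cirbp and Hspa1a. Hspa5, Sdf2l1, Manf and Creld2 are the ER genes already described, so the list count is not separate from them. The list was also chosen with earlier results of these data known. Without cage M2 the count was 3 of 20 (against 2.73% of all genes), and without cage M1 it was 10 of 20 (against 6.28%). The most abundant member, the constitutive chaperone Hspa8, averaged 1358 CPM and had cage means within a 1.07-fold range.

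The cold-inducible members lay the other way in cage M2. Cirbp, an RNA-binding protein whose level rises when temperature falls (chr10:80167841-80171653), ran from 43.6 to 70.3 CPM with a median of 59.2 CPM, and the males of cage M2 were the lowest, at 43.6 and 49.1 CPM. Rbm3, of the same family (chrX:8138975-8145880), was at 43.6 and 43.7 CPM in cage M2 and ran from 46.8 to 65.8 CPM in the other males. Chordc1, a co-chaperone of Hsp90 (chr9:18292267-18314000), was highest in cage M2, at 128 and 129 CPM against 94.1 to 120 CPM elsewhere. For each of these 3 genes, cage M2 thus held the extreme cage mean.

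Cirbp, Rbm3 and Chordc1 each had an edgeR adjusted p of 0.965 by Benjamini-Hochberg, with cage means that spanned 1.43-fold, 1.43-fold and 1.29-fold in 7 cages. Without cage M2 neither Cirbp nor Rbm3 had an unadjusted p under 0.05 in the edgeR fit. Rbm3 shares 94 exon bases with Rbm3os, so its counts are uncertain.

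In females 5 of 20 members of this list had an unadjusted p under 0.05 (25%, against 5.11% of all genes), with a median intraclass correlation of 0.286. The 5 were Hspa5, Chordc1, Rbm3, Cirbp and Creld2, and all of them were among the 8 of the males. Female Hspa5 was at 442 and 388 CPM in cage F1 for the dominant and the submissive mouse, 441 and 349 CPM in cage F2, 431 and 380 CPM in cage F3, and 355 and 348 CPM in cage F4. Both females of cage F4 were the lowest of their rank, and the dominant female was higher in each cage. The female adjusted p by Benjamini-Hochberg in the edgeR fit was 0.602 for Hspa5 (a 1.18-fold range of cage means, mates on the same side in 3 of 4 cages). Xbp1 and Manf had ranges of 1.10-fold and 1.01-fold and an unadjusted p above 0.05.

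Promoters are shown because Hspa5 and its most similar genes deviated together. The ER stress element, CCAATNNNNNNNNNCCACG with 9 free bases, was searched on both strands in 300 bases around each gene start in RefSeq sequence of build GRCm38.p6. It was found in 39 of 32851 promoters of that length (0.119%) and in 3 of the 6 genes Hspa5, Xbp1, Pdia4, Creld2, Pdia6 and Dnajb11. The matches are those of Hspa5 (chr2:34771840-34772139, + strand, beginning 65 bases before the start), Creld2 (chr15:88819396-88819695, + strand, 126 bases before, in reverse orientation) and Pdia6 (chr12:17266339-17266638, + strand, 98 bases before). Capitals mark the match.
Hspa5: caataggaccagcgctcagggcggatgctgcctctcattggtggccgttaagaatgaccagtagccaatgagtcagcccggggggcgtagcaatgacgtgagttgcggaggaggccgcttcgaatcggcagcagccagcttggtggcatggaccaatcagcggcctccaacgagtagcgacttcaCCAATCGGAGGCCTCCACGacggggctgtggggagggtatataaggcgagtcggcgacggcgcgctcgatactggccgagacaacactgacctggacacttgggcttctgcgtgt
Creld2: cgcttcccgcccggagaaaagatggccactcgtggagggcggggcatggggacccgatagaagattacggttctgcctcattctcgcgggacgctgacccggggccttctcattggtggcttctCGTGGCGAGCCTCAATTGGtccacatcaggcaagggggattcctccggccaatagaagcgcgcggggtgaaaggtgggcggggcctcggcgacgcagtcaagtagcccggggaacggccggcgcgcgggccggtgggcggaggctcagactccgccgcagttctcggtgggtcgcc
Pdia6: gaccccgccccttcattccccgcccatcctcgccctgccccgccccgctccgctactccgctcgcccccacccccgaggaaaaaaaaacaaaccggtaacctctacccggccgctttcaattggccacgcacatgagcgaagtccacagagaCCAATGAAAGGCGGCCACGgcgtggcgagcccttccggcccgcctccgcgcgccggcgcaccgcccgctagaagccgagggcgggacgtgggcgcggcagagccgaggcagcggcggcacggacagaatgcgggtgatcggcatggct

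Other genes among the 20 smallest male p values were also extreme in cage M2. Slc5a3, the transporter that takes up myo-inositol with sodium (chr16:92058322-92087473), was at 207 and 206 CPM in cage M2 and ran from 135 to 179 CPM in the other males. Ehd2, an ATPase of caveolae (chr7:15948987-15967535), averaged 6.63 CPM in cage M2 and 3.50 CPM in cage M6. Lower in cage M2 than in every other cage were Opalin, a membrane protein of oligodendrocytes (chr19:41063420-41077113, 18.9 CPM against up to 28.9 CPM in cage M5), Mef2c, a transcription factor of neurons (chr13:83504034-83667079, 555 against up to 684 CPM), and Tfrc, the transferrin receptor (chr16:32608896-32632794, 228 against up to 273 CPM). The kinase Pak7 (75 against up to 88.8 CPM), the glutamate receptor Grm3 (187 against up to 220 CPM) and Sprn (154 against up to 201 CPM) were lowest there as well. The males of cage M3 lay close to cage M2 for Mef2c (560 and 560 CPM), Pak7 (77.7 and 75.9 CPM) and Sprn (159 and 161 CPM).

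Of the 20 genes, 8 had their highest and 6 their lowest cage mean in cage M2, and 2 had their highest and 7 their lowest in cage M4, counts that were not tested. Slc5a3 had an edgeR adjusted p of 0.940 by Benjamini-Hochberg, a 1.52-fold range of cage means and mates on the same side in 5 of 7 cages. That range includes the difference between the sets, which averaged 177 CPM (M1 to M4) and 147 CPM (M5 to M7). Its adjusted p ran from 0.00219 to 1.00 over its alternatives. Slc5a3 shares 145 exon bases with Mrps6 and Sprn 159 with Mtg1, so their counts are uncertain. The remaining 2 genes of the 20 without an extreme in cage M2 and outside the groups described were Mtcl1 (78.3 CPM in cage M3 and 61.5 in cage M5) and Samd14 (30.3 CPM in cage M3 and 22.7 in cage M5).

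Genes of serotonergic neurons had wide ranges over the males, and none passed the adjusted threshold in the edgeR fit of all 7 cages. Slc6a4, the serotonin transporter (chr11:76998597-77032343), ran from 0.870 to 11.5 CPM with a median of 5.81 CPM. Tph2, which makes serotonin from tryptophan in the brain (chr10:115078641-115185022), ran from 2.21 to 22.7 CPM with a median of 12.6 CPM. In set M1 to M4 both males of cages M2 and M3 had Slc6a4 between 8.21 and 11.5 CPM, and both males of cages M1 and M4 had it between 1.78 and 3.36 CPM, with no overlap. In set M5 to M7 the pair of cage M7 was highest at 10.6 and 11.2 CPM, while the mates of cages M5 (3.41 and 0.870 CPM) and M6 (2.99 and 8.90 CPM) differed from each other.

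Cage means of Slc6a4 spanned 5.28-fold, from 2.07 CPM in cage M4 to 10.9 CPM in cage M7, with mates on the same side in 6 of 7 cages (edgeR quasi-likelihood, Benjamini-Hochberg adjusted p = 0.396). Tph2 spanned 3.79-fold with mates on the same side in 6 of 7 cages (edgeR, Benjamini-Hochberg adjusted p = 0.965). In the 4 cages M1 to M4 alone, both passed the adjusted threshold. Slc6a4 also passed it without cage M6, where its adjusted p was 0.0327 in a range from 0.00179 to 1.00 over 19 alternatives.

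The genes most similar to Slc6a4 over the 14 males were Tph2 (r = 0.988), Slc18a2 (0.921), which loads monoamines into vesicles, Acin1 (0.913), Pnp2 (0.874) and the transcription factor Irx2 (0.857). Acin1 shares 538 exon bases with neighbours and is uncertain. In the list of monoaminergic neuron genes 5 of 11 tested had an unadjusted p under 0.05 (45.5%, against 4.30%). They were Slc6a4, Tph2, Ddc, Slc18a2 and Slc6a3, the dopamine transporter, and the median intraclass correlation of the list was 0.249. Slc6a3 lay the other way, with its lowest cage mean in cage M2 and a log2 deviation there of -0.279, against 1.01 for Slc6a4 and 0.896 for Tph2. The most abundant member, Aldh1a1, averaged 136 CPM, with a 1.26-fold range of cage means and an unadjusted p above 0.05. Without cage M1 the count was 7 of 11.

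The summed level of the monoaminergic list was 234 and 241 CPM in cage M1, 280 and 304 in cage M2, 292 and 285 in cage M3, 235 and 217 in cage M4, 270 and 248 in cage M5, 261 and 296 in cage M6, and 289 and 311 in cage M7. In the list of brainstem and spinal identity genes 0 of 7 tested had an unadjusted p under 0.05 (2 of 7 without cage M1), and its summed level ran from 39.7 CPM in the submissive male of cage M4 to 73.5 CPM in the submissive male of cage M2. Its glycine transporter Slc6a5 ran from 6.91 to 24.3 CPM over the males, with the highest cage mean in cage M2 and the lowest in cage M4. The part of the amount of brainstem in each sample was not tested, and fewer cells of a type and less RNA per cell cannot be told apart in bulk tissue.

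In females Tph2 differed by rank, with 1 mouse of each rank in each cage. Tph2 was at 7.71 CPM in the dominant and 20.6 CPM in the submissive female of cage F1, 5.04 and 15.1 CPM in cage F2, 1.90 and 17.9 CPM in cage F3, and 2.61 and 5.90 CPM in cage F4. The submissive female was higher in 4 of 4 cages, and both females of cage F4 were low for their rank. With cage in the fit, the log2 difference of dominant minus submissive was -1.78 for Tph2 (edgeR quasi-likelihood, Benjamini-Hochberg adjusted p = 8.96e-05, 4 of 4 cages). Cage was also called for Tph2 in females (Benjamini-Hochberg adjusted p = 0.0401 in the edgeR fit, a 3.33-fold range of cage means, mates on the same side in 3 of 4 cages). Under its 12 alternatives this call was kept in 5 and lost in 7, with adjusted p from 2.28e-11 to 1.00. Its intraclass correlation was 0.42. Slc6a4 had an edgeR adjusted p of 0.966 by Benjamini-Hochberg for cage in females, a 2.13-fold range of cage means, mates on the same side in 2 of 4 cages and an intraclass correlation of -0.0111.

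Immediate-early genes were the next group among the 20 leading male genes, with Egr2 and Fos. Both, and Arc from outside the 20, were highest on average in cage M3, while Btg2 was highest in cage M1 (21.8 CPM). With set and rank means removed, the largest log2 deviation of Egr2 was in cage M5 (0.611), against 0.432 in cage M3. Fos, a transcription factor induced by neuronal activity (chr12:85473901-85477270), was at 22.6 CPM in the dominant and 16.5 CPM in the submissive male of cage M2 and at 22.6 and 23.2 CPM in cage M3. It was lower in cages M1 (13.1 and 15 CPM) and M4 (17.1 and 12.1 CPM). In set M5 to M7 all 6 males were between 7.39 and 10.3 CPM, below every male of the other set, a difference that the test between cages does not use. Mates were on the same side of their set and rank mean in 6 of 7 cages.

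Egr2, another activity-induced transcription factor (chr10:67537869-67542188), ran from 0.92 to 6.39 CPM with a median of 3.09 CPM, and the dominant male was higher in 7 of 7 cages. Arc, a protein of synaptic plasticity (chr15:74669081-74672570), was at 119 and 132 CPM in cage M3, at 130 and 89.9 CPM in cage M2, at 98.2 and 87.4 CPM in cage M1, and at 92.2 and 56.1 CPM in cage M4. The males of set M5 to M7 had Arc between 41.7 and 59.8 CPM.

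In males 6 of 20 immediate-early genes had an unadjusted p under 0.05 (30.0%, against 4.30%) and 0 had an adjusted p under 0.05 in the edgeR fit. The 6 were Egr2 (3.93-fold between the highest and the lowest cage mean), Fos (2.88-fold), Arc (2.47-fold), Btg2 (1.74-fold), Nr4a3 (1.91-fold) and Ier2 (1.73-fold). These ranges include the difference between the sets. The median intraclass correlation of the list was 0.228. The count was 8 of 20 without cage M1 (against 6.28% of all genes) and 9 of 20 without cage M5 (against 4.8%). The genes most similar to Egr2 were Lamc1 (r = 0.877), Slc4a5 (0.836), Stk40 (0.824), Gpr3 (0.824) and Ccdc55 (0.822). Of these, Lamc1 encodes a laminin chain and Slc4a5 a bicarbonate transporter of the choroid plexus.

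In females the same list held 5 of the 11 genes that differed between cages, and all 5 were highest in cage F3. Arc was at 67.7 and 62.3 CPM in cage F1, 63.2 and 69.8 CPM in cage F2, 160 and 110 CPM in cage F3, and 94.0 and 64.2 CPM in cage F4, for the dominant and the submissive female. Dusp1, a phosphatase that switches off MAP kinases (chr17:26505591-26508472), was at 10.9 and 9.81, 13 and 14.1, 23.8 and 21.4, and 17.1 and 13.4 CPM in the same order. Fos was at 11.1 and 11.3, 9.65 and 13.3, 27.4 and 22.3, and 15 and 11.1 CPM. Both females of cage F3 lay above all 6 other females for each of the 3 genes.

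Nr4a1, a nuclear receptor induced by activity (chr15:101266846-101274794), was at 35.0 and 32.6 CPM in cage F3, just above the dominant female of cage F4 at 31.6 CPM, and between 15 and 19.6 CPM in the remaining 5 females. Btg2, an antiproliferative gene (chr1:134074865-134079155), was at 24.0 and 25 CPM in cage F3, 18.7 and 19.1 CPM in cage F2, 17.6 and 14.7 CPM in cage F4, and 12.9 and 13.3 CPM in cage F1. Mates of Btg2 were within a narrow band in each cage, with an intraclass correlation of 0.93. The summed level of the 20 genes was 898 and 712 CPM in cage F3 and ran from 546 to 696 CPM in the other females.

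**Figure D2:**
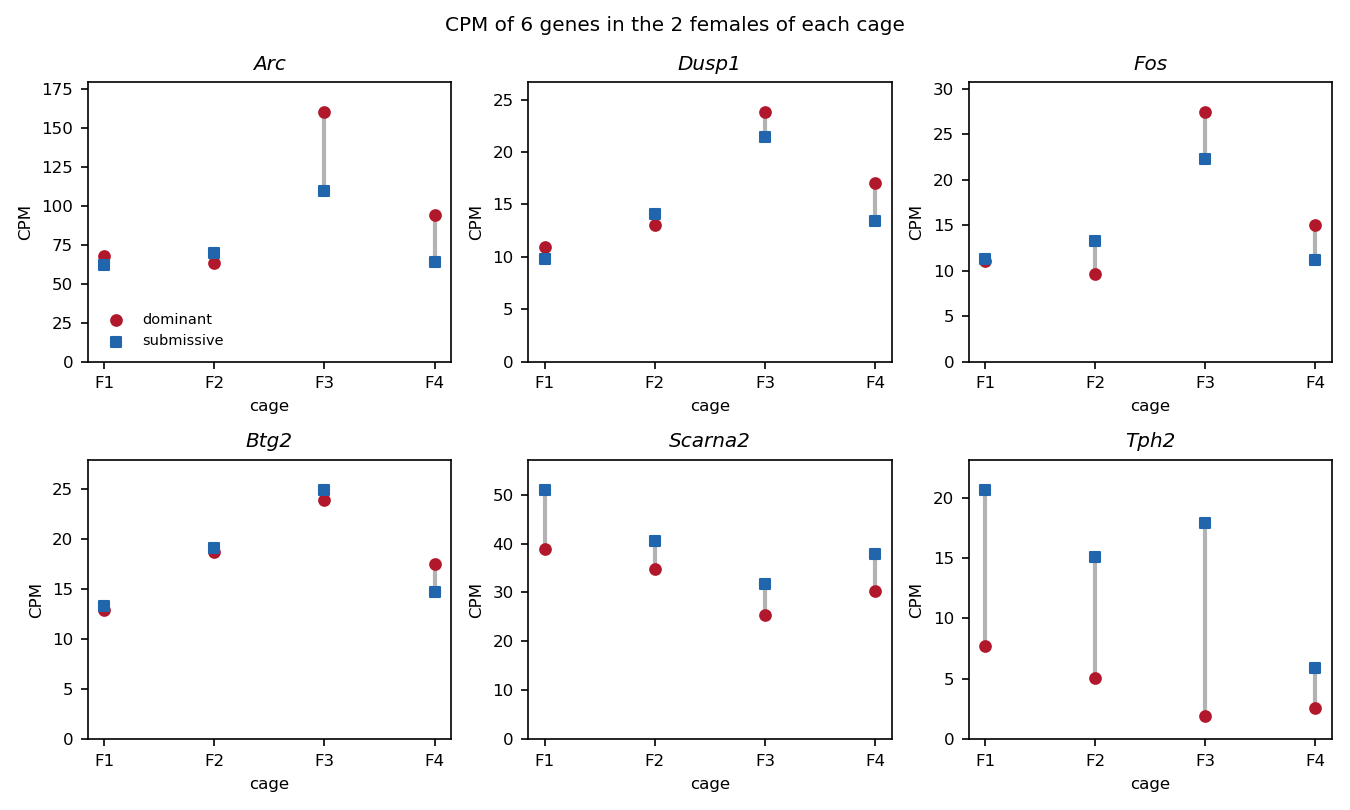
CPM of Arc, Dusp1, Fos, Btg2, Scarna2 and Tph2 in each female, by cage, with circles for dominant and squares for submissive mice. The 4 immediate-early genes were highest in both females of cage F3, Scarna2 was lowest there, and Tph2 was higher in the submissive female of each cage.

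The female fit called 11 of 14865 genes (0.0740%) at an adjusted p under 0.05 (edgeR quasi-likelihood F test, Benjamini-Hochberg), and 759 (5.11%) had an unadjusted p under 0.05. limma-trend called 7 genes and the DESeq2 likelihood ratio test 5. Adjusted p by Benjamini-Hochberg in edgeR was 1.29e-04 for Arc (2.08-fold between highest and lowest cage mean, mates on the same side in 3 of 4 cages) and 4.75e-04 for Dusp1 (2.18-fold, 3 of 4 cages). It was 7.19e-04 for Fos (2.22-fold, 3 of 4 cages), 0.00112 for Nr4a1 (2.13-fold, 3 of 4 cages) and 0.00112 for Btg2 (1.87-fold, 4 of 4 cages) in the same edgeR fit. Of these calls, Arc was lost in 2 of 13 alternatives, Btg2, Dusp1 and Fos each in 2 of 12, and Nr4a1 in 4 of 12. In the whole list 13 of 20 had an unadjusted p under 0.05 (65.0%), with a median intraclass correlation of 0.570. Npas4 and Junb had edgeR adjusted p of 0.0779 and 0.0821 by Benjamini-Hochberg, with 2.68-fold and 1.63-fold ranges in 4 cages.

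The female fit removed the mean of rank only. With the means of cages F1 and F2 and of cages F3 and F4 removed as well, Arc, Btg2, Fos and Pde1c stayed called in edgeR. Dusp1, Nr4a1, Scarna2, Pcsk1n, Plin4, Snord17 and Tph2 were no longer called.

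The calls of immediate-early genes rested on cage F3. Without it 2 genes were called, Tph2 and Npas4, and Arc, Dusp1 and Btg2 kept an unadjusted p under 0.05 in the edgeR fit while Fos did not. Without cage F2 the count of calls was 31. In males Dusp1 was highest on average in cage M3, as Fos and Arc were. Its intraclass correlation was -0.23, with mates on the same side in 2 of 7 cages. Male Btg2 was highest on average in cage M1.

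Promoters of the called immediate-early genes are shown because these genes deviated together in cage F3. The cAMP response element TGACGTCA, which reads alike on both strands, was found in 588 of 32851 RefSeq promoters of 300 bases (1.79%, build GRCm38.p6). Of Arc, Dusp1, Fos, Nr4a1 and Btg2, the promoter table held 4 genes, and 2 of them had a match. These are Dusp1 (chr17:26508423-26508722, - strand, beginning 143 bases before the start) and Btg2 (chr1:134079106-134079405, - strand, 166 bases before). Capitals mark the match.
Dusp1: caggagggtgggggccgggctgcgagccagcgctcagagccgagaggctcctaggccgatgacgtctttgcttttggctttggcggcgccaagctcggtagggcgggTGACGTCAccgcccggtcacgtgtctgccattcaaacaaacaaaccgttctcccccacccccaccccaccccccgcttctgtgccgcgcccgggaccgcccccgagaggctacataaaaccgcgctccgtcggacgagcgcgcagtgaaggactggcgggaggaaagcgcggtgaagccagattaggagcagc
Btg2: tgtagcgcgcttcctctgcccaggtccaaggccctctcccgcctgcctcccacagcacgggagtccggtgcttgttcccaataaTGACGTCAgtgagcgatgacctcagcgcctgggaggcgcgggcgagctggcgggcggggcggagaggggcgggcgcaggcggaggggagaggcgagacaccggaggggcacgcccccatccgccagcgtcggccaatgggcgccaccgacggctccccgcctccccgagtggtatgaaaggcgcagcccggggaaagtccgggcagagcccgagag

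The other female calls were 2 small RNAs and 4 protein-coding genes. Scarna2, a guide RNA of Cajal bodies (chr3:108554342-108554402), was lowest in cage F3, at 25.4 CPM in the dominant and 31.8 CPM in the submissive female, and highest in cage F1, at 38.8 and 51.0 CPM (intraclass correlation 0.96). Its level was higher in the submissive female in 4 of 4 cages. Snord17, a small nucleolar RNA (chr2:144265982-144266202), was at 144 and 149 CPM in cage F3 and between 114 and 129 CPM in the other 6 females. Plin4, a coat protein of lipid droplets induced by glucocorticoids (chr17:56100591-56109802), was at 4.92 and 7.42 CPM in cage F2 and between 1.70 and 3.73 CPM elsewhere.

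Pcsk1n, the precursor of an inhibitor of prohormone processing (chrX:7919822-7924410), averaged 97.6 CPM in cage F1 and 75.3 CPM in cage F3. Pde1c, a calmodulin-dependent phosphodiesterase (chr6:56069804-56369634), averaged 60.9 CPM in cage F3 and 45.0 CPM in cage F4, and it was chosen after its values were seen. Its log2 deviations in cages F1 to F4 were 0.0922, -0.0792, 0.213 and -0.226, against 0.0793, -0.163, 0.272 and -0.189 for Gabra6. In the dominant male of cage M1, which had little Gabra6, Pde1c was at 27.7 CPM, against 38.9 to 73.1 CPM in the other males. The part of cerebellar content in Pde1c was not tested. The edgeR adjusted p by Benjamini-Hochberg was 0.00124 for Scarna2 (1.57-fold, mates on the same side in 4 of 4 cages), 0.0338 for Snord17 (1.27-fold, 3 of 4 cages), and 0.0338 for Plin4 (2.63-fold, 3 of 4 cages). It was 0.0338 for Pcsk1n (1.30-fold, 3 of 4 cages) and 0.0405 for Pde1c (1.35-fold, 4 of 4 cages). Over its alternatives Pde1c was lost in 7 of 13, Pcsk1n and Snord17 each in 5 of 13, Plin4 in 5 of 12 and Scarna2 in 3 of 13. Pcsk1n shares 135 exon bases with Eras and Plin4 14 with Hdgfrp2, so their counts are uncertain.

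The leading genes of one sex were looked up in the other. Of the 11 genes called in females, 6 had an unadjusted p under 0.05 in males (54.5%, against 4.30% of all genes), namely Arc, Fos, Btg2, Scarna2, Pcsk1n and Tph2. Their 11 male intraclass correlations had a median of 0.354, and 8 were above 0. Dusp1, Plin4 and Snord17 lay the other way, with male values of -0.23, -0.51 and -0.85. Male mates were on the same side in only 3 of 7 cages for Pcsk1n and 4 of 7 for Scarna2. They were so in 5 of 7 for Arc and Btg2 and in 6 of 7 for Fos and Tph2. Of the 20 genes with the smallest p in males, 9 had an unadjusted p under 0.05 in females (45.0%, against 5.11%), namely Slc6a4, Hspa5, Slc5a3, Tph2, Tfrc, Egr2, Pak7, Fos and Pdia4. Of these, Slc6a4 had female mates on the same side in only 2 of 4 cages. The median female intraclass correlation of the 20 was 0.266.

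The edgeR fit called no gene in males, so it gave no male call to look up in females. Of the 4 male calls of DESeq2, Hspa5 and Slc5a3 had an unadjusted p under 0.05 in the female edgeR fit, and Mef2c and Xbp1 did not. The count of 9 was 4 without cage F4, 5 without cage F3, and 4 by the DESeq2 likelihood ratio test. Over all 14669 genes tested in both sexes, 73 had an unadjusted p under 0.05 in both, which is 11.5% of the 633 male and 9.69% of the 753 female genes. No test of these overlaps was made.

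**Figure D3:**
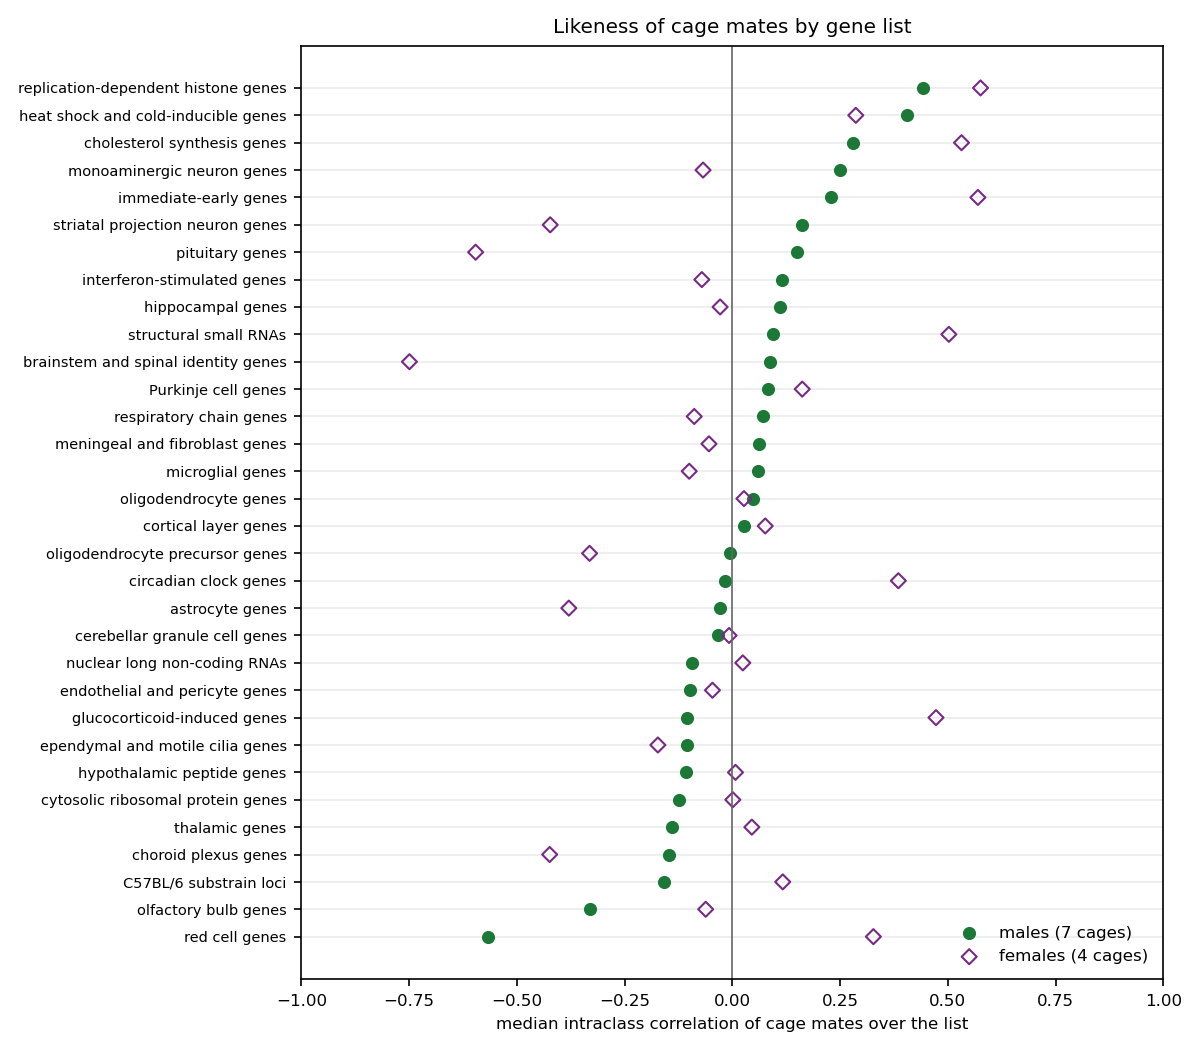
Median intraclass correlation of cage mates over the tested genes of each of 32 gene lists, with filled points for males and open diamonds for females. In males replication-dependent histones (0.442) and heat shock and cold-inducible genes (0.404) were highest, and in females histones (0.576) and immediate-early genes (0.570).

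Glucocorticoid-induced, cholesterol synthesis and clock genes had more members at a small p in females than in males, a difference that was not tested. The fits differed in form, since the male fit removed the means of the cage sets and of rank and the female fit those of rank only. Over all genes the share was 5.11% in females and 4.30% in males, and the male shares of these 3 lists were near it, at 5.26%, 5% and 5%. The female shares were 57.9%, 40% and 30%. Without cage M1 the male counts were 2 of 19, 4 of 20 and 1 of 20. Glucocorticoid-induced genes had 11 of 19 members at an unadjusted p under 0.05 in females, with a median intraclass correlation of 0.472, and 1 of 19 in males (Fkbp5, a co-chaperone of the glucocorticoid receptor), with a median of -0.104. The metal-binding protein Mt2 was at 36.4 and 37.0 CPM in cage F1, 43.3 and 42.3 in cage F2, 32.4 and 39.9 in cage F3, and 45.7 and 45.1 in cage F4 (edgeR, Benjamini-Hochberg adjusted p = 0.379, 1.26-fold, mates on the same side in 4 of 4 cages). Male Fkbp5 was lowest in cage M3, at 14.7 and 16.0 CPM, and ran from 16.0 to 21.7 CPM in the other males (edgeR, Benjamini-Hochberg adjusted p = 0.965, 1.38-fold, 4 of 7 cages).

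Cholesterol synthesis genes had 8 of 20 members at an unadjusted p under 0.05 in females (median intraclass correlation 0.532) and 1 of 20 in males (Lss, median 0.281). Hmgcs1, which makes the precursor of mevalonate, was at 437 and 472 CPM in cage F1, 420 and 466 in cage F2, 408 and 437 in cage F3, and 481 and 494 in cage F4 (edgeR, Benjamini-Hochberg adjusted p = 0.546, 1.155-fold, mates on the same side in 4 of 4 cages). Both females of cage F3 were the lowest of their rank and both of cage F4 the highest. In males Hmgcs1 was lowest in both mice of cage M2, at 375 and 378 CPM, with an unadjusted p above 0.05. Lss shares 381 exon bases with 4930483K19Rik and is uncertain.

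Clock genes had 6 of 20 members at an unadjusted p under 0.05 in females (median 0.385) and 1 of 20 in males (median -0.0175), Per2. Per2, a repressor of the circadian clock (chr1:91415982-91459328), was at 30.3 and 30.6 CPM in cage M2, and at 23.0 and 30.8 CPM in cage M3, while the other 10 males ran from 15.9 to 24.8 CPM (edgeR, Benjamini-Hochberg adjusted p = 0.965, 1.76-fold, mates on the same side in 3 of 7 cages). Female Per2 was highest in cage F1, at 32.4 and 28.9 CPM, and lowest in cage F4, at 25.6 and 21.5 CPM (edgeR, Benjamini-Hochberg adjusted p = 0.474, 1.30-fold, 3 of 4 cages). Replication-dependent histones had 3 of 14 members in males (Hist1h2bc, Hist1h1d and Hist1h4h) and 3 of 14 in females (21.4% each; 4 of 14 in males without cage M1), with median intraclass correlations of 0.442 and 0.576.

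The lists of Purkinje and granule cell genes of the cerebellum held 0 members at an adjusted p under 0.05 in either sex (edgeR fit of all cages). Purkinje cell genes had 10 of 15 members at an unadjusted p under 0.05 in females (median 0.162) and 1 of 15 in males (Lhx1, median 0.0833), or 66.7% and 6.67% against 5.11% and 4.30% of all genes. Without cage M1, whose dominant male had 0 counts of Pcp2, the male count was 11 of 15. The cause of this change was not tested. Their most abundant gene, Itpr1, averaged 1790 CPM in females, and their summed level ran from 3040 to 4022 CPM there and from 1959 to 3888 CPM in males, where 1959 CPM was the dominant male of cage M1 and the next lowest male was at 2941 CPM. Car8 was at 468 and 525 CPM in cage F1, 493 and 323 in cage F2, 552 and 566 in cage F3, and 388 and 445 in cage F4. Cage F3 was thus also high in a cerebellar marker, and the part of this in the calls was not tested. Granule cell genes had 5 of 15 members in females (33.3%, median -0.00769) and 0 of 15 in males (median -0.0328). With cage M1 left out the male count was 2 of 15, where 6.28% of all genes had an unadjusted p under 0.05.

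Other gene groups had between 0 and 4 members at a small p in males, where the share over all genes was 4.30% (5.11% in females). Among 24 cytosolic ribosomal protein genes 0 had an unadjusted p under 0.05 in either sex, and among 24 respiratory chain genes 0 in males and 1 in females. Microglial genes had 1 of 15 and astrocyte genes 1 of 15 in males (6.67% each). Red cell genes had 0 of 4 and the lowest male median, -0.567. Hypothalamic peptide genes had 0 of 12 in males (median -0.108) and 6 of 12 in females (50%, median 0.00715). Striatal projection neuron genes had 3 of 15 in each sex (20%), in males Pde10a, Drd1 and Rgs9. Their median was 0.162 in males and -0.423 in females, where 4 of 15 were above 0. Nuclear long non-coding RNAs had 4 of 13 (30.8%, median -0.0940) and oligodendrocyte precursor genes 3 of 15 (20%, median -0.00560) in males. Without cage M1 the male counts were 2 of 15 for microglial, 3 of 15 for astrocyte, 3 of 12 for hypothalamic peptide and 2 of 15 for striatal projection neuron genes. They were 5 of 13 for nuclear long non-coding RNAs and 3 of 15 for oligodendrocyte precursor genes, and 0 for ribosomal protein, respiratory chain and red cell genes.

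The most and the least shared single genes show the range. Among male genes with a mean of at least 10 CPM, the non-coding RNA 2900092D14Rik had the highest intraclass correlation (0.976), followed by Tomm20 (0.959), a receptor of the outer mitochondrial membrane, and Elac2 (0.946), which processes the ends of transfer RNAs. For 2900092D14Rik the mates of cage M2 were at 17.1 and 17 CPM and those of cage M6 at 12 and 11.5 CPM. The lowest values were those of Tmem88b (-0.981), the growth factor Vegfb (-0.975) and Cc2d1b (-0.965). Tmem88b was at 43.7 and 54.3 CPM in cage M1 and at 44.9 and 55.3 CPM in cage M7, so mates lay apart. In females, 2900092D14Rik had an intraclass correlation of -0.94.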

How the data were processed

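Total RNA of the right hemisphere, depleted of ribosomal RNA, was sequenced by the authors, who trimmed reads with cutadapt 1.15, checked them with FastQC 0.11.8, mapped with STAR 2.6.0a (genome mm10), and counted reads per gene with featureCounts 1.6.2. The values used are these deposited counts, with the deposited exon length per gene used for other checks only. Males and females form separate tables and were fitted apart. The members and the gene lists were chosen with earlier results of these data known.

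Counts were scaled with TMM factors in edgeR 4.0.16 (R 4.3.3). The filter on low counts was filterByExpr, with a count of 10 and a total of 15. The cage terms were tested together with the quasi-likelihood F test, 5 terms in males with rank and set kept and 3 in females with rank kept, and p was adjusted by Benjamini-Hochberg over all genes tested. The intraclass correlation was the difference of the mean squares between and within cages divided by their sum, on log2 CPM with a prior count of 2. The correlation of cage mates was compared with that of other pairs by an exact permutation over pairings. A threshold of 0.05 was used. The procedure was also tried on simulated data, and the outcome is not reported here. Tables and figures were made in Python 3.11.15.

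Pairs were defined by the cage in the library names, in which M1 to M7 are 1394 to 1400 and F1 to F4 are 01279, 01280, Gr1 and Gr2, and the study states that both mice of a cage were killed together. The check of the pairing was the correlation of mates' deviations across genes, which averaged -0.0838 in males and 0.0239 in females. Alternatives were DESeq2 1.42.0, limma 3.58.1, other size factors and filters, trends on exon length and GC content (known for 95.6% of 24421 genes) removed, and each cage left out in turn.

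Named genes were set by a rule. It took the 20 genes with the smallest p in males and the 10 in females, and in each of 32 lists the members at the smallest p, the most abundant member and any member counted. It also took the 5 genes most similar to the leading gene of a list, the 3 highest and the 3 lowest intraclass correlations among genes of at least 10 CPM, and Xist and Ddx3y. One further marker looked up is not reported here. Promoters were searched in RefSeq sequence, and 10 of the 11 genes looked up had an entry.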

Additional observations from a re-analysis of the deposited data

Results flagged for a closer look

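For each gene named by the rule, the highest and the lowest mouse of each group of the same sex and rank were compared with the rest, and values that lay far from the others of the group are given here. Of 340 such groups of 4 or 7 mice, 24 held a value of this kind. The rule was set at a nominal rate of 1 in 20 groups by chance, a rate not estimated from these data. None was tested further.

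In the dominant male of cage M2, Creld2 (16.9 CPM) and Chordc1 (128 CPM) lay above the other dominant males, and Cirbp (43.6 CPM), Hmgcs1 (375 CPM) and the dopamine receptor gene Drd1 (54.9 CPM) lay below them. In the dominant male of cage M1, Pcp2 (0 CPM), Gabra6 (0.496 CPM), Itpr1 (1308 CPM), Slc1a6 (10.2 CPM) and Car8 (18.2 CPM), all genes of cerebellar cells, lay far below the other dominant males. Vegfb was high in the dominant male of cage M6, at 15.7 CPM.

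Among submissive males, Slc6a3 was low in cage M2 (15 CPM) and Fkbp5 in cage M3 (16.0 CPM). Pcp2 (19.9 CPM), Slc1a6 (18.5 CPM) and Car8 (223 CPM) were low in the submissive male of cage M4.

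Among dominant females, Hspa5 (355 CPM) and Serpinh1 (20.5 CPM) were low in cage F4 and Nr4a3 (15.2 CPM) in cage F2. Among submissive females, Ehd2 (3.77 CPM) and Mtcl1 (75.2 CPM) were low and Fkbp5 (41.4 CPM) was high in cage F2, and in cage F1 Per2 (28.9 CPM) was high and Mt1 (144 CPM) was low.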

How the results depend on the processing

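The male count of 0 called genes stayed at 0 under limma-trend and most other settings, and became 4 with the DESeq2 likelihood ratio test, 2 with no filter on low counts (Hspa5 and Slc6a4), 2 in cages M1 to M4 alone and 868 when the sets were not separated. Leaving out each cage gave 0 to 1. The female count of 11 became 5 with DESeq2, 7 with limma-trend, 99 with no filter, 2 with a mean count of at least 500 (fewer genes tested), and 4 when cages were tested within the 2 kinds of cage name, and leaving out each cage gave 2 to 31. The causes were not tested.

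The male difference in correlation of cage mates turned from -0.0215 to 0.207 when set means were not removed (exact permutation p = 0.0149), and leaving out each cage gave -0.0748 to 0.0350, above 0 without cage M1 (0.0350) or M4 (0.0124). The female difference was -0.00210 with deviations scaled per gene, an alternative chosen after seeing the data, and 0.0154 to 0.0766 with each cage left out. The 9 of 20 leading male genes found in females became 4 with DESeq2 and 4 to 12 with each cage left out, and the 6 of 11 female calls found in males became 5 to 7 with each cage left out and 8 when the sets were not separated. Both counts were chosen after seeing the data.

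Rank was tested with cage as the replicate block. Without the block the count of female rank calls was 14 in place of 36, and the male count was 0 both ways. Over the 170 results of single genes, 2725 alternative values kept 2611 on their side of the threshold, with 44 lost and 70 gained. Depth limits genes near the level of 3 counts.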
